A study of Mus musculus with 13 samples.

Results

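Wnt pathway components were examined in microglia that lacked Trem2. The set holds 44 genes chosen by name, of 52636 genes measured, and covers secreted Wnt inhibitors, the one ligand Wnt5a with the proteins that export ligands, Frizzled and other receptors, Dishevelled proteins, the β-catenin destruction complex and the TCF/LEF factors. RNA-Seq data came from 7 PS2APP;Trem2wt mice, 2 of them male, and from 6 PS2APP;Trem2ko mice, 1 of them male (their labels read PS2APP and PS2APP;Trem2KO), and every mouse counted as 1 replicate. All mice were 14 to 15 months old and carried the PS2APP transgenes, human presenilin 2 and amyloid precursor protein with familial Alzheimer's disease mutations, so every sample came from a brain with β-amyloid plaques and mice without the transgenes are not analysed here. The Trem2ko mice had both copies of Trem2 replaced by the KOMP null allele Trem2tm1(KOMP)Vlcg, which was made on C57BL/6N and bred into the C57BL/6J PS2APP line, and the Trem2wt mice came from the same crosses between parents heterozygous for that allele. Cells positive for CD11b and CD45 and negative for Ly6g and Ccr2 were sorted from dissociated cortex and hippocampus, which yields mostly microglia with some perivascular macrophages.

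In canonical Wnt signaling, a secreted Wnt protein binds a Frizzled receptor and an Lrp5 or Lrp6 co-receptor on the cell surface. Dishevelled then blocks the destruction complex of Axin, Apc, Gsk3 and casein kinase 1, β-catenin (Ctnnb1) is no longer marked for degradation, and it enters the nucleus and acts with TCF/LEF factors on target genes. Secreted proteins hold the pathway in check outside the cell: Dkk proteins bind the LRP co-receptors, and Wif1 and Sfrp proteins bind Wnt ligands. In myeloid cells β-catenin signaling has been linked to survival and proliferation.

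Dkk2, Wif1 and Ptk7 were called lower in PS2APP;Trem2ko microglia, and no component was called higher. Dkk2 transcripts were 37.7-fold lower and Wif1 transcripts 32.3-fold lower, with no overlap between the genotypes. Ptk7, a Wnt co-receptor of the planar polarity branch, was 5.0-fold lower with overlap, and its call was lost in 9 of 13 fits that left out a mouse. Counts were compared with edgeR's quasi-likelihood test over the 17086 genes that passed an expression filter, and a change was called at a Benjamini-Hochberg adjusted p of 0.05 or less. The 3 called genes are 3 of the 34 components that passed the filter (8.82%), where 1.53% of all genes tested were called lower. None of the 34 was called higher by edgeR, voom+limma or DESeq2, where 0.503% of all genes tested were called higher by edgeR. All 3 also passed a 2-fold cutoff, as did 0.691% of all genes tested on the lower side and 0.0527% on the higher side, where no component did. At an unadjusted p of 0.05 or less, 10 components were lower and 2 were higher, against 7.56% and 7.29% of all genes tested. The median log2 fold change (PS2APP;Trem2ko minus PS2APP;Trem2wt) of the 34 was -0.11, within a range of -5.24 to 1.11, and the median over all genes tested was 0.00. The 10 components under the filter were Fzd2, Axin2, Tcf7l1, Rnf43, Ror1, Ror2, Kremen2, Sfrp1, Sfrp2 and Wnt5a. Dkk2, Wif1, Fzd9 and Ptk7 had been picked out by the study on these same mice, and all 3 called genes are among them. Neither their direction nor the shares of components they make up are therefore independent evidence. In microglia of another amyloid model, profiled by other investigators, the paper reports lower expression without Trem2 for these genes except Ptk7.

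Each mouse had between 26120961 and 120569609 reads counted on genes. The median was 35201380 in PS2APP;Trem2wt and 55371726 in PS2APP;Trem2ko mice, so raw read counts given below are not on the same scale in both genotypes. Trem2 itself was between 818 and 1244 nRPKM in PS2APP;Trem2wt mice and between 0.393 and 2.29 nRPKM in PS2APP;Trem2ko mice, where nRPKM is a read count scaled by transcript length and library size, with a size factor. Because nRPKM accounts for transcript length, it is also the scale used here to set one gene's level beside another's. The summed level of 8 microglial markers was 13510 to 16396 nRPKM (median 16110) in PS2APP;Trem2wt and 13841 to 15682 nRPKM (median 14346) in PS2APP;Trem2ko mice. Of that list Cx3cr1 was called lower, and the median log2 fold change of the 8 was 0.00. In the same order of genotypes, the 6 astrocyte markers summed to 56.3 to 69.9 (median 62.9) and 60.0 to 76.1 nRPKM (median 73.6). The 6 oligodendrocyte markers summed to 55.9 to 73.8 and 51.1 to 66.3 nRPKM, and no gene of either list was called. T and NK cell markers summed to 0.429 to 4.04 and 0.580 to 6.59 nRPKM. The 6 endothelial markers summed to 7.90 to 23.0 and 8.45 to 13.9 nRPKM, with Flt1 called lower. The 6 neutrophil markers, of cells the Ly6g gate is meant to remove, summed to 13.1 to 246 and 0.143 to 40.3 nRPKM, and none of the 4 tested was called (median log2 fold change -1.60). PS2APP;Trem2wt mouse 2 held the most neutrophil, monocyte (24.0 nRPKM) and mural (8.90 nRPKM) marker transcripts of its genotype. Without that mouse edgeR still called Dkk2 and Wif1 lower and did not call Ptk7. The same mouse and PS2APP;Trem2ko mouse 6 held the most endothelial transcripts of their genotypes. Without both, Dkk2 and Wif1 were still called lower and Ptk7 was not (adjusted p = 0.129, edgeR). According to the methods, one mouse of each genotype was usually taken through perfusion, dissociation and sorting at the same time, but the labels do not say which mice went together, so the tests ignore this pairing. In bulk RNA fewer cells that express a gene cannot be told apart from less transcript per cell.

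**Figure D1:**
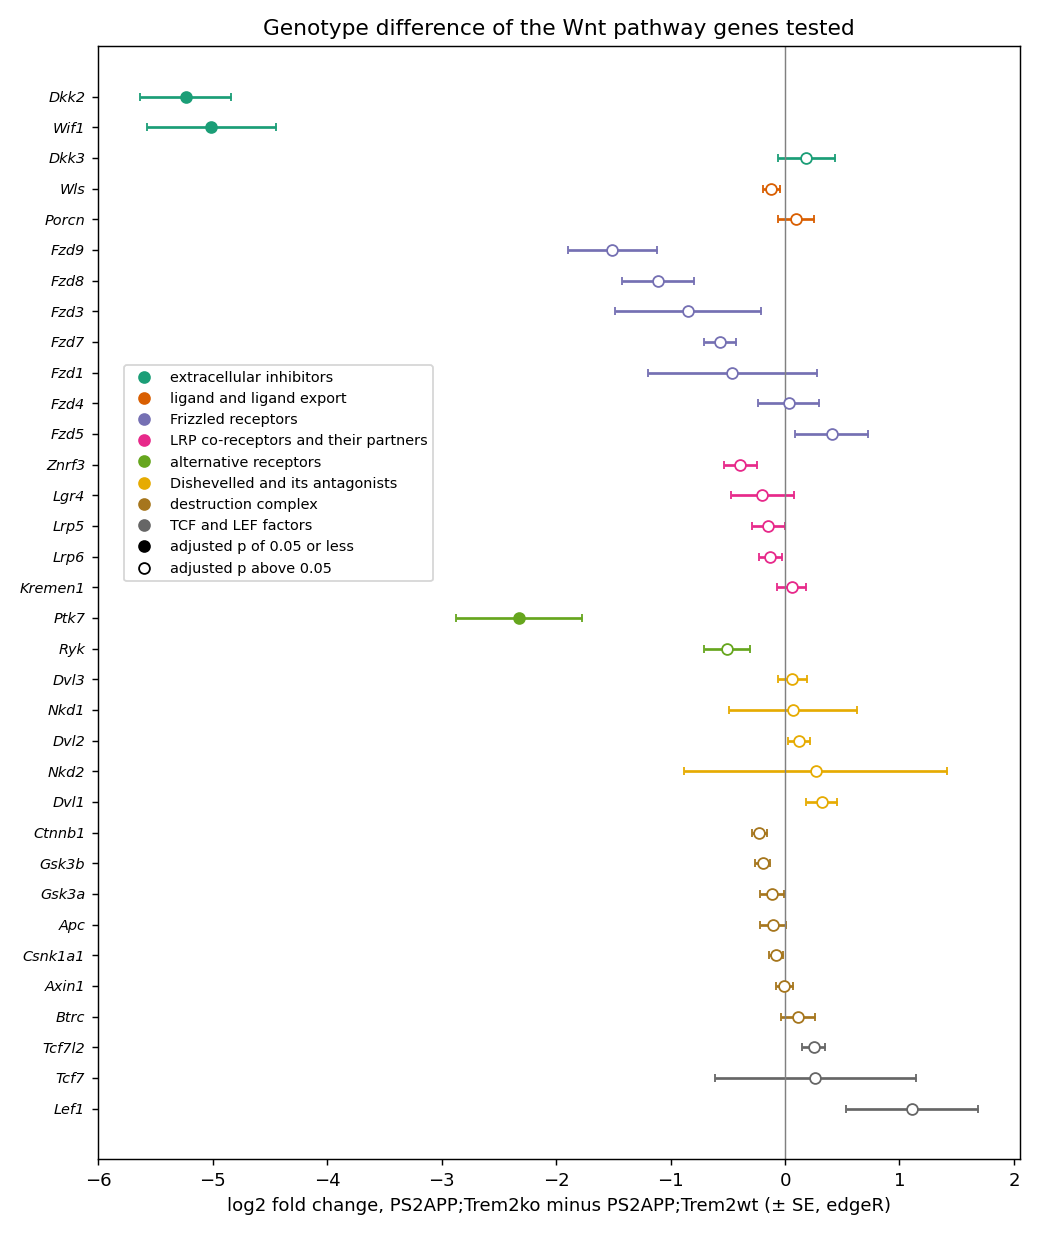
Log2 fold change (PS2APP;Trem2ko minus PS2APP;Trem2wt) with its standard error for the 34 Wnt pathway components tested, grouped by role. Filled points passed an adjusted p of 0.05 or less; Dkk2 (-5.24), Wif1 (-5.01) and Ptk7 (-2.32) stand far to the left and the other 31 points are open.

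The promoter-proximal DNA of Dkk2 and Wif1 is shown because these are the genes with the largest changes of the set. Sequences are RefSeq's on GRCm38.p6, plus strand, read 5′ to 3′ and ending at the base before the annotated gene start, with capitals marking GAGGAA, a core of the site bound by the myeloid factor PU.1. The Dkk2 window is chr3:132085042-132085291 and the Wif1 window chr10:121033754-121033959.
Dkk2: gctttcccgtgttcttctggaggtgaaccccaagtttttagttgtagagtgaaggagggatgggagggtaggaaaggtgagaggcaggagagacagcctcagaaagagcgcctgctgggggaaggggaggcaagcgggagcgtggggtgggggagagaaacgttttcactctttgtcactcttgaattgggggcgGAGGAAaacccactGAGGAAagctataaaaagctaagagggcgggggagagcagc
Wif1: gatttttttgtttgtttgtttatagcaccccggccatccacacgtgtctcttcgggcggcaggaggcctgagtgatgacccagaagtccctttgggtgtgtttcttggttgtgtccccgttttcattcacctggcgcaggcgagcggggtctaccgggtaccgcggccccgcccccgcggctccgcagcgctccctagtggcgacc
The Dkk2 window of 250 bases held GAGGAA at positions -55 to -50 and -41 to -36, and its G+C content was 55.6%. No GAGGAA lay in the 206 bases of Wif1, of which 61.7% were G or C. Of the 32851 RefSeq mouse promoters, 23.3% had GAGGAA on either strand within 250 bases upstream of the start. Among the components, 29 of 44 matched a RefSeq promoter, with 36 promoters in all, and 11 of these held the motif. CTTTGA, a core of the TCF/LEF site, was in 13.8% of all promoters and in 5 of the 36, those of Fzd1, Gsk3a, Gsk3b, Lef1 and Ror1. It was in neither window shown above. The AP-1 motif TGANTCA was in 6.75% of all promoters and in 2 of the 36. A match of letters is a description and does not show that a factor binds there.

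Dkk2 (ENSMUSG00000028031, chromosome 3, 132085292 to 132180304, GRCm38) encodes Dickkopf 2, a secreted ligand of Lrp5 and Lrp6 that inhibits or, depending on Kremen, activates the pathway. Its level in PS2APP;Trem2wt mice ran from 3.04 to 6.91 nRPKM with a median of 4.18, and in PS2APP;Trem2ko mice from 0.0338 to 0.263 nRPKM with a median of 0.0982. The highest PS2APP;Trem2ko mouse was thus far under the lowest PS2APP;Trem2wt mouse, and the same held in males and females. The means were 4.49 ± 1.41 (SD, n = 7) and 0.111 ± 0.0843 (SD, n = 6) nRPKM. On the log2 scale Dkk2 fell by 5.24 (SE 0.40, edgeR adjusted p = 3.05e-06), and the call held whichever mouse was left out. Between 8 and 162 reads fell on Dkk2 in PS2APP;Trem2ko mice, against 430 to 2641 in PS2APP;Trem2wt mice, so the transcript was still detected in every mouse. Among the 5 secreted inhibitors of the set Dkk2 had the highest PS2APP;Trem2wt level, and in PS2APP;Trem2ko mice Dkk3 did.

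Wif1 (ENSMUSG00000020218, chromosome 10, 121033960 to 121100650) encodes Wnt inhibitory factor 1, which binds Wnt proteins and keeps them from their receptors. It ranged from 0.342 to 2.60 nRPKM (median 1.05) in PS2APP;Trem2wt mice and from 0.0136 to 0.0801 nRPKM (median 0.0293) in PS2APP;Trem2ko mice. Every PS2APP;Trem2wt mouse was above every PS2APP;Trem2ko mouse, and within PS2APP;Trem2wt the level was widely spread, with mice 1 and 7 at 2.21 and 2.60 nRPKM and mouse 4 at 0.342 nRPKM. Mean levels were 1.23 ± 0.854 (SD, n = 7) and 0.0399 ± 0.0277 (SD, n = 6) nRPKM. The transcript fell by 5.01 on the log2 scale (SE 0.57, edgeR adjusted p = 0.000139), and this call too held in all 13 fits that left out a mouse. Only 2 to 14 reads per PS2APP;Trem2ko mouse fell on Wif1, so its fold change rests on few reads in that genotype and the size is less certain than that of Dkk2.

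**Figure D2:**
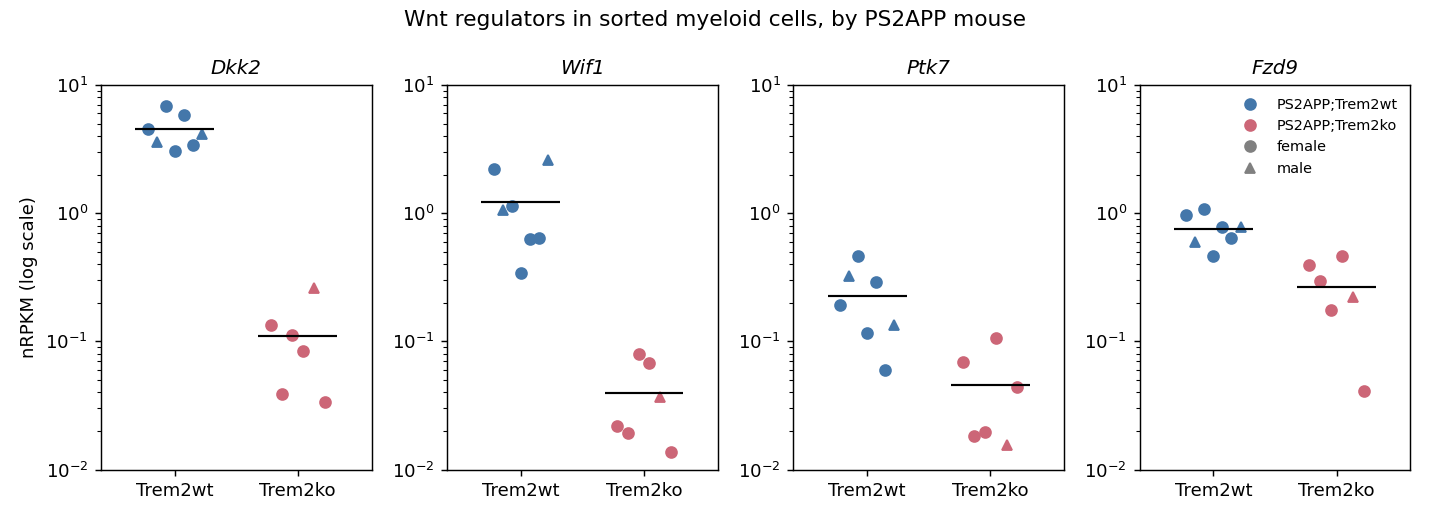
Levels of Dkk2, Wif1, Ptk7 and Fzd9 in each mouse (nRPKM, log axis), by genotype. Circles are females, triangles are males and the line is the mean; the genotypes do not overlap for Dkk2, Wif1 and Fzd9, and overlap for Ptk7.

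The other secreted inhibitors were not called. Dkk3, a divergent Dickkopf relative, was at 0.808 ± 0.318 (SD, n = 7) nRPKM in PS2APP;Trem2wt and 0.917 ± 0.191 (SD, n = 6) nRPKM in PS2APP;Trem2ko mice, a log2 difference of 0.19 with a 95% interval of -0.30 to 0.68 (edgeR adjusted p = 0.789). Sfrp1 and Sfrp2, decoys that resemble the ligand-binding part of Frizzled, were under the filter, with at most 33 reads in any mouse for Sfrp1 and at most 4 for Sfrp2.

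Whether Dkk2 and Wif1 varied together among mice was examined within PS2APP;Trem2wt alone, since the genotypes form separate clusters. Over the 7 mice, Pearson's r of log2(nRPKM + 0.1) between Dkk2 and Wif1 was 0.30 (exact permutation p = 0.491, adjusted over 6 pairs p = 0.590) and Spearman's rho was 0.43 (exact permutation p = 0.354, adjusted p = 0.424). Dkk2 and Fzd9 gave r = 0.86 (exact permutation p = 0.0139, adjusted p = 0.0833) and rho = 0.86 (exact permutation p = 0.0238, adjusted p = 0.143). For the other 4 pairs among Dkk2, Wif1, Fzd9 and Ptk7, r was between 0.17 and 0.75, and no pair passed the threshold after adjustment over all 7 mice. Without PS2APP;Trem2wt mouse 5, Dkk2 with Fzd9 passed (r = 0.92, exact permutation, adjusted p = 0.0333). Leaving out the 2 mice farthest from the median of Dkk2 gave r = 0.96 for Dkk2 with Wif1, 0.98 for Dkk2 with Fzd9 and 0.31 for Dkk2 with Ptk7, so the values for Wif1 and Ptk7 depended on those 2 mice. No correlation was computed within one sex, since the 5 females and 2 males are each fewer than 6 mice.

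**Figure D3:**
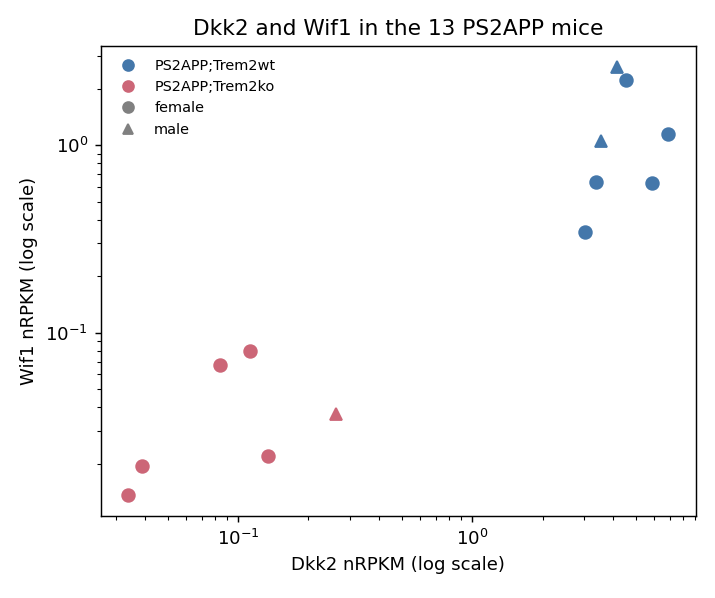
Dkk2 against Wif1 level (nRPKM) in the 13 mice, with the genotypes in different colors, circles for females and triangles for males. The 7 PS2APP;Trem2wt mice are at 3.04 nRPKM or more of Dkk2 and 0.342 nRPKM or more of Wif1, and the 6 PS2APP;Trem2ko mice reach at most 0.263 and 0.0801 nRPKM.

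Among components of ligand production, Wls, which carries lipid-modified Wnt proteins to the cell surface, was one of the most abundant genes of the set. Its level was 51.1 ± 5.59 (SD, n = 7) nRPKM in PS2APP;Trem2wt and 47.1 ± 2.34 (SD, n = 6) nRPKM in PS2APP;Trem2ko mice, and single mice ran from 44.2 to 59.0 and from 45.0 to 51.2 nRPKM. The groups overlapped and the log2 difference was -0.12 (SE 0.08, edgeR adjusted p = 0.496). Porcn, the acyltransferase that adds the lipid, averaged 2.71 ± 0.312 (SD, n = 7) and 2.91 ± 0.836 (SD, n = 6) nRPKM (edgeR adjusted p = 0.828). Wnt5a, a ligand best known for signaling without β-catenin, had at most 5 reads in any PS2APP;Trem2wt mouse and at most 23 in any PS2APP;Trem2ko mouse. Of the 18 other Wnt genes, 3 passed the filter and none was called. The most abundant were Wnt7b (0.148 ± 0.0664 and 0.111 ± 0.0518 nRPKM, edgeR adjusted p = 0.656) and Wnt4 (0.112 ± 0.0543 and 0.101 ± 0.0312 nRPKM, adjusted p = 0.880). Transcripts of the export machinery were thus far more abundant than those of any ligand in these cells.

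The 10 Frizzled receptors summed to 12.4 ± 1.97 (SD, n = 7) nRPKM in PS2APP;Trem2wt and 8.92 ± 2.10 (SD, n = 6) nRPKM in PS2APP;Trem2ko mice, with ranges of 8.75 to 15.0 and 6.42 to 11.7 nRPKM that overlapped. Fzd7 made up 52.9% and 51.4% of that sum, Fzd4 24.4% and 32.5%, Fzd8 12.3% and 8.40% and Fzd9 6.31% and 3.26%. Of the 8 Frizzleds in the set 7 passed the filter, and none was called by edgeR. An unadjusted p of 0.05 or less was found for Fzd7, Fzd8 and Fzd9, all on the lower side.

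Fzd7 (ENSMUSG00000041075, chromosome 1, 59482424 to 59486955), the dominant Frizzled of these cells, ranged from 4.28 to 8.29 nRPKM (median 7.07) in PS2APP;Trem2wt and from 3.42 to 5.25 nRPKM (median 4.63) in PS2APP;Trem2ko mice. All PS2APP;Trem2wt mice but mouse 1 lay above every PS2APP;Trem2ko mouse. The log2 difference was -0.57 (SE 0.14, edgeR adjusted p = 0.0533), and it passed with voom+limma (adjusted p = 0.0387), with DESeq2 (adjusted p = 0.00454) and in edgeR without PS2APP;Trem2wt mouse 1 (adjusted p = 0.00970). Fzd7 was called in 3 of the alternatives other than leaving out 1 mouse, and not called in 8. It was also not called in 12 of 13 fits that left out a mouse (edgeR adjusted p 0.0566 to 0.119).

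Fzd9 (ENSMUSG00000049551, chromosome 5, 135248938 to 135251230) was between 0.468 and 1.07 nRPKM (median 0.784) in PS2APP;Trem2wt and between 0.0409 and 0.467 nRPKM (median 0.258) in PS2APP;Trem2ko mice. The genotypes did not overlap, though the highest PS2APP;Trem2ko and the lowest PS2APP;Trem2wt mouse almost met. Separation of this kind in the lower direction, judged on TMM-scaled counts, was seen in Dkk2, Wif1 and Fzd9 among the components and in 1.22% of all genes tested; no component separated in the higher direction, against 0.421% of all genes. The log2 difference of Fzd9, -1.51 (SE 0.39), missed the threshold in edgeR (adjusted p = 0.0586) and passed with voom+limma (adjusted p = 0.0254), DESeq2 (adjusted p = 0.00332) and in edgeR without PS2APP;Trem2ko mouse 4 (adjusted p = 0.0435) or mouse 6 (adjusted p = 0.0387). Fzd9 was called in 4 of the alternatives other than leaving out 1 mouse, and not called in 7. It was also not called in 11 of 13 fits that left out a mouse (edgeR adjusted p 0.0622 to 0.112).

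Fzd8 was between 0.704 and 2.32 nRPKM in PS2APP;Trem2wt (median 1.86) and between 0.519 and 1.05 nRPKM in PS2APP;Trem2ko mice (median 0.651). PS2APP;Trem2wt mice 3, 4, 5 and 6, all females, were at 1.86 to 2.32 nRPKM, while mice 1, 2 and 7, a female and both males, were at 0.704 to 0.831 nRPKM, inside the PS2APP;Trem2ko range. The log2 difference was -1.11 (SE 0.32, edgeR adjusted p = 0.0937), and it passed with DESeq2 (adjusted p = 0.0115), in females only (-1.35, adjusted p = 0.0496) and without PS2APP;Trem2wt mouse 1 (adjusted p = 0.0444). Fzd8 was called in 2 of the alternatives other than leaving out 1 mouse, and not called in 9. It was also not called in 12 of 13 fits that left out a mouse (edgeR adjusted p 0.0553 to 0.180). Fzd4, a receptor of the vascular ligand Norrin as well as of Wnt proteins, was at 3.0 ± 0.418 (SD, n = 7) and 3.06 ± 1.75 (SD, n = 6) nRPKM. Its spread in PS2APP;Trem2ko came from a range of 1.32 to 6.22 nRPKM, the highest value being the one male, and its log2 difference of 0.03 changed sign with the fit (-0.12 with voom+limma, -0.30 in females only). Fzd1, Fzd3 and Fzd5 averaged at most 0.120 nRPKM in both genotypes, and none was called.

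**Figure D4:**
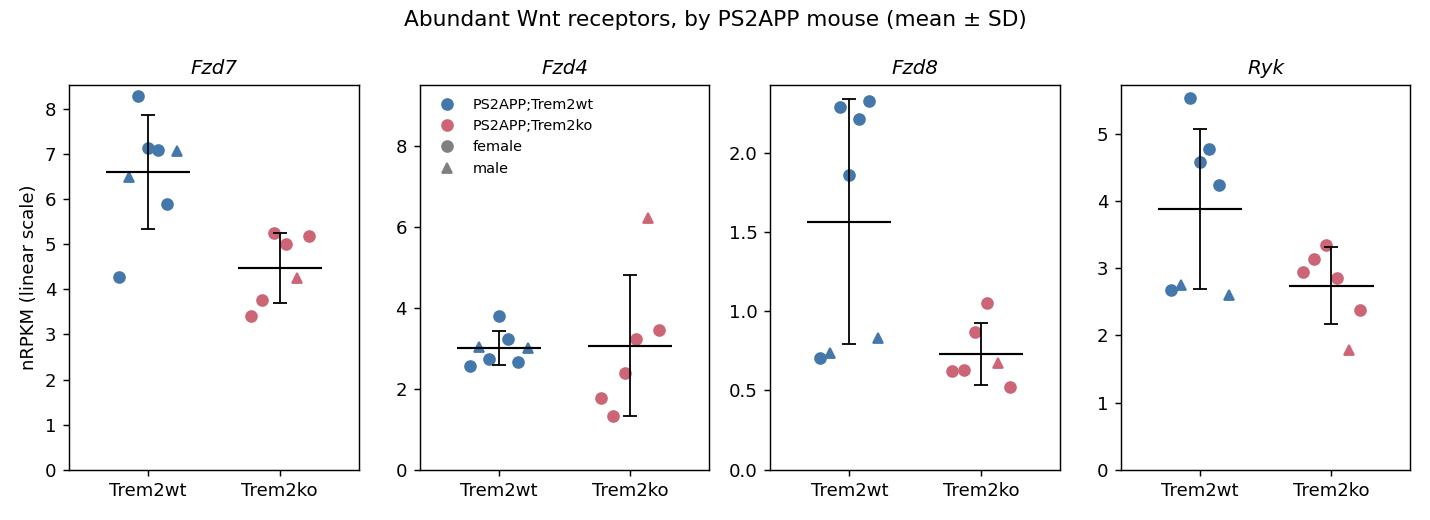
Levels of Fzd7, Fzd4, Fzd8 and Ryk in each mouse (nRPKM, linear axis) with the mean and SD by genotype; circles are females and triangles males. Fzd8 and Ryk in PS2APP;Trem2wt fall into a higher set of 4 mice and a lower set of 3 mice that lies at the PS2APP;Trem2ko level.

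The receptors outside the Frizzled family gave the remaining call. Ptk7 (ENSMUSG00000023972, chromosome 17, 46564471 to 46629504), a pseudokinase receptor, ranged from 0.0600 to 0.462 nRPKM (median 0.192) in PS2APP;Trem2wt and from 0.0155 to 0.106 nRPKM (median 0.0319) in PS2APP;Trem2ko mice. Of 6 PS2APP;Trem2ko mice 4 lay below all PS2APP;Trem2wt mice and the other 2 fell inside their range. Ptk7 fell by 2.32 on the log2 scale (SE 0.55, edgeR adjusted p = 0.0386), from 11 to 203 reads per mouse to 5 to 52. The call was lost in 9 of 13 fits that left out a mouse (PS2APP;Trem2wt mice 1, 2, 3 and 5 and PS2APP;Trem2ko mice 1, 2, 3, 5 and 6), with adjusted p between 0.0226 and 0.0819 over all 13. In the 9 fits the log2 fold change was -2.50 to -2.04, beside -2.32 with all mice. The gene lies 1.72 Mb from Trem2 on the same chromosome, so in the Trem2ko mice DNA around it may derive from the strain of the null allele, and this cannot be told apart from the loss of Trem2. Ryk, a receptor that binds Wnt through a WIF domain, was at 3.88 ± 1.19 (SD, n = 7) and 2.74 ± 0.574 (SD, n = 6) nRPKM, with a log2 difference of -0.51 (SE 0.20, edgeR adjusted p = 0.237). The PS2APP;Trem2wt mice low in Fzd8 were also those low in Ryk, at 2.60 to 2.76 nRPKM against 4.24 to 5.55 nRPKM in mice 3 to 6. Ror1 and Ror2, the Wnt5a receptors, were under the filter with at most 9 reads in any mouse.

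Neither LRP co-receptor was called. Lrp5 averaged 3.43 ± 0.631 and 3.11 ± 0.644 nRPKM and Lrp6 4.13 ± 0.435 and 3.79 ± 0.573 nRPKM (n = 7 and 6), and the 95% intervals of their log2 differences were -0.43 to 0.14 and -0.32 to 0.07. Kremen1, the partner of Dkk proteins in removing LRP6 from the surface, was at 6.02 ± 1.25 and 6.29 ± 0.726 nRPKM (log2 difference 0.06, edgeR adjusted p = 0.887). Znrf3, a ligase that clears Frizzleds from the membrane, was at 0.549 ± 0.0795 and 0.419 ± 0.0785 nRPKM, a log2 difference of -0.39 (SE 0.14, edgeR adjusted p = 0.200). Lgr4, a receptor for R-spondins, was at 0.425 ± 0.170 and 0.374 ± 0.0982 nRPKM. None of these was called, and Rnf43 and Kremen2 were under the filter.

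Inside the cell no component was called by edgeR. Ctnnb1 (ENSMUSG00000006932, chromosome 9, 120929216 to 120960507), which encodes β-catenin, had the highest mean level of the set, from 51.3 to 64.1 nRPKM (median 54.7) in PS2APP;Trem2wt and from 43.6 to 53.5 nRPKM (median 47.6) in PS2APP;Trem2ko mice. The ranges overlapped, and the log2 difference was -0.22 (SE 0.07, edgeR adjusted p = 0.121), which passed only with DESeq2 (adjusted p = 0.0296). Of its 50-base transcript words 12.3% also occur in Ulk4, so reads could be split between the genes. Gsk3b, the kinase that marks β-catenin for degradation, was at 4.81 ± 0.305 (SD, n = 7) and 4.21 ± 0.289 (SD, n = 6) nRPKM (log2 difference -0.19, SE 0.07, edgeR adjusted p = 0.161). The scaffold Axin1 averaged 10.8 nRPKM in both genotypes, and the 95% interval of its log2 difference was -0.15 to 0.14. Apc, Gsk3a, Csnk1a1 and Btrc had log2 differences between -0.11 and 0.11. Axin2, which is widely used as a readout of β-catenin activity, was under the filter, with at most 16 reads in PS2APP;Trem2wt and at most 26 in PS2APP;Trem2ko mice.

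Dvl1, the most abundant Dishevelled, was at 6.73 ± 1.46 (SD, n = 7) and 8.44 ± 1.08 (SD, n = 6) nRPKM, with single mice from 4.71 to 8.85 and from 7.29 to 9.63 nRPKM and a log2 difference of 0.32 (SE 0.13, edgeR adjusted p = 0.269). Tcf7l2, the main TCF/LEF factor in these cells, was at 5.86 ± 0.775 and 6.98 ± 0.788 nRPKM, from 4.20 to 6.49 and from 6.18 to 7.91 nRPKM, with a log2 difference of 0.25 (SE 0.10, edgeR adjusted p = 0.247). These 2 genes were the components on the higher side at an unadjusted p of 0.05 or less. Dvl2 and Dvl3 had log2 differences of 0.12 and 0.06. Lef1 was at 0.0777 ± 0.0705 and 0.166 ± 0.121 nRPKM (log2 difference 1.11, SE 0.58, edgeR adjusted p = 0.394), and its highest mice were those with the most endothelial markers of each genotype, at 0.222 and 0.366 nRPKM. Without both mice the Lef1 difference was still positive and not called. The same mice had the most mural marker transcripts of their genotypes, and PS2APP;Trem2wt mouse 2 also the most neutrophil and monocyte ones. Whether endothelial or any of these other cells contributed to the Lef1 difference was not tested. Tcf7 and the Dishevelled antagonists Nkd1 and Nkd2 averaged at most 0.115 nRPKM with edgeR adjusted p of at least 0.929, and the signs of their differences changed with the fit or the mice kept.

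**Figure D5:**
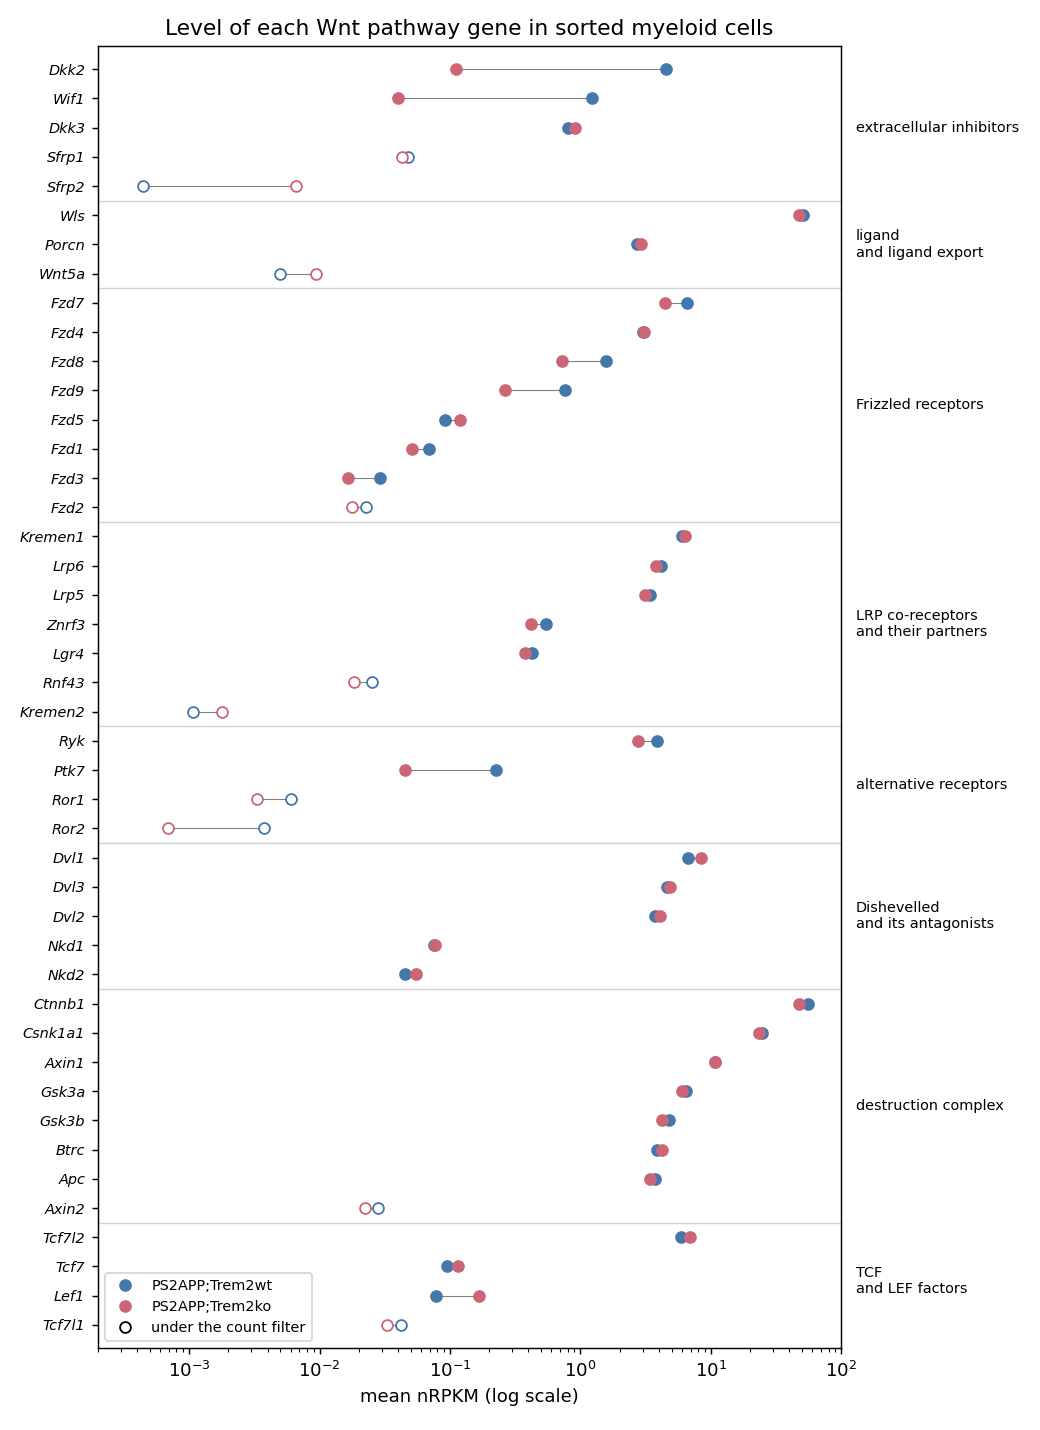
Mean level of each of the 44 components (nRPKM, log axis) in PS2APP;Trem2wt and PS2APP;Trem2ko microglia, with open symbols for the 10 genes under the expression filter. Ctnnb1 and Wls lie between 47.1 and 55.6 nRPKM, and the widest gaps between the genotypes among tested genes are those of Dkk2 and Wif1.

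The rest of the pathway was described with 134 further genes in 7 lists, of which 96 passed the filter. Of these 3 were called lower (3.13%) and none higher by edgeR, against 1.53% and 0.503% of all genes tested. At an unadjusted p of 0.05 or less 14 were lower and 4 higher, against 7.56% and 7.29%. Prickle1, a cytoplasmic protein of the planar polarity branch, was between 3.63 and 5.41 nRPKM in PS2APP;Trem2wt and between 1.62 and 3.08 nRPKM in PS2APP;Trem2ko mice, without overlap. It fell by 0.81 on the log2 scale (SE 0.13, edgeR adjusted p = 0.00386). Igfbp4, a secreted protein that binds Frizzled and Lrp6 and can inhibit the pathway, was at 6.06 ± 0.614 and 3.79 ± 1.06 nRPKM and fell by 0.68 (SE 0.14, edgeR adjusted p = 0.0180). Rac1, a GTPase with many roles outside Wnt signaling, was at 44.9 ± 3.05 and 38.4 ± 0.952 nRPKM and fell by 0.23 (SE 0.06, edgeR adjusted p = 0.0483). Prickle1 and Igfbp4 were called in each of the 13 fits that left out a mouse, and Rac1 in none of them (adjusted p 0.0536 to 0.0984).

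Genes known as β-catenin targets in other cells were listed as a further group. Of 25 such genes, 6 of them also components, 18 passed the filter, with negative log2 fold changes in 7 and positive ones in 11, and none was called by edgeR, while by an unadjusted p of 0.05 or less 2 were lower and none was higher, against 7.56% and 7.29% of all genes tested. The median log2 fold change was 0.06, beside 0.00 over all genes tested. Myc was at 22.8 ± 2.05 and 24.8 ± 1.78 nRPKM (edgeR adjusted p = 0.484), Ccnd1, a cyclin of the G1 phase, at 7.14 ± 2.94 and 5.89 ± 0.981 nRPKM (adjusted p = 0.552) and Cd44, a hyaluronan receptor, at 1.6 ± 0.540 and 0.982 ± 0.252 nRPKM (adjusted p = 0.114). These 3 were named after their values were seen.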

How the data were processed

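RNA-Seq data of sorted myeloid cells from 7 PS2APP;Trem2wt and 6 PS2APP;Trem2ko mice were analysed, grouped by the genotype label. The authors prepared SMART-Seq libraries, sequenced single-end 50 base reads, discarded adapters, low-quality and rRNA reads, and aligned with GSNAP to GRCm38. The files the authors deposited hold, per mouse and gene, the raw counts of reads with a unique alignment and the nRPKM, an RPKM corrected by a size factor. The annotation release, the use of strand and the GSNAP version are not given in the sources used here. Names were found for 52403 of 52636 genes. The limit of detection was 3 counts and covers counting error only.

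Counts were tested with edgeR 4.0.16 in R 4.3.3 (filterByExpr by genotype, TMM, glmQLFit and glmQLFTest, no covariate), and p-values were adjusted over all genes tested. Standard errors were taken as the absolute log2 fold change over the root of the F value, and intervals of log2 differences are normal 95% intervals from it. The components, roles and lists were chosen with earlier results of these data known, and the components Dkk2, Wif1, Fzd9 and Ptk7 are ones the study itself names. Described in full were components called, those the study names, the most abundant of each role and those with an unadjusted p of 0.05 or less, with called genes of the other lists and the 2 most abundant ligands. Alternatives were voom+limma (limma 3.58.1, the study's method), DESeq2 1.42.0, RLE size factors, no filter, a minimum of 10 counts in 6 mice, a sex term, the females alone, limma on nRPKM at log2 scale with 0.1 or 1 added, and leaving out each mouse. 2 were added after seeing the data: leaving out both mice with the most endothelial markers, and counts thinned to the smallest library. On simulated counts over 16762 genes for this comparison, edgeR recovered 86.2% of 116 genes changed by 1.5 and 90.9% of 77 genes changed by 2 on the log2 scale, with 8 false calls. On the same counts voom+limma recovered 81.0% and 89.6% with 12 false calls, and DESeq2 89.7% and 92.2% with 38 false calls. Reads shared between genes were estimated from 50-base transcript words found in another gene. Correlations and figures used Python 3.11.15, scipy 1.17.1 and matplotlib 3.10.9.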

Additional observations from a re-analysis of the deposited data

Results flagged for a closer look

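Within a genotype, a mouse stood far from the others in 4 of 68 groups of values for the components tested, where about 1 in 20 groups, or 3.4, is expected by chance. Dvl3 was lowest in PS2APP;Trem2ko mouse 2 at 3.70 nRPKM, and the other 5 mice were between 4.80 and 5.37 nRPKM. Tcf7l2 was lowest in PS2APP;Trem2wt mouse 3 at 4.20 nRPKM, with the other 6 between 5.79 and 6.49 nRPKM. Porcn was highest in PS2APP;Trem2ko mouse 1 at 4.50 nRPKM, against at most 3.02 nRPKM in the others. Nkd1 was highest in PS2APP;Trem2wt mouse 2 at 0.205 nRPKM, against at most 0.0680 nRPKM in the others. The same mouse had the most endothelial (23.0 nRPKM summed), neutrophil, monocyte and mural marker transcripts of its genotype. The part of any of these cells in the Nkd1 value was not tested. None of these 4 genes was called between the genotypes.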

How the results depend on the processing

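Dkk2 and Wif1 were called lower under every alternative run, with log2 fold changes of -5.81 to -2.27 and -5.28 to -1.02, the smallest on log2(nRPKM + 1). The count of 3 components called lower became 5 with voom+limma (Fzd7 and Fzd9 added) and 7 with DESeq2 (Fzd8 and Ctnnb1 as well), or 5 with DESeq2 past the 2-fold cutoff too, and lay between 2 and 4 when a mouse was left out, with or without that cutoff. The shares of all genes called by voom+limma and DESeq2 are not given here. Counts from these tools therefore have no background and are not results about the components. Ptk7 was not called in females only (adjusted p = 0.114), on log2(nRPKM + 1) (0.0873), without both mice highest in endothelial markers (0.129) or in thinned counts (0.0710). The 3 other pathway genes called lower became 6 with DESeq2, and 1 (Prickle1) in females only and without both mice; the count was 2 with each mouse left out. The 0 called higher became 1 (Ldb1) with DESeq2, in females only, on log2(nRPKM + 0.1) and log2(nRPKM + 1), in thinned counts and without PS2APP;Trem2wt mouse 7, and 0 to 1 over the fits without a mouse. The median of the components stayed between -0.13 and -0.06.

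The signs of some differences that were not called turned. Fzd4 gave -0.12 with voom+limma, -0.30 in females only, -0.13 on log2(nRPKM + 0.1), -0.071 on log2(nRPKM + 1) and -0.0028 without both mice. Axin1 gave 0.0039 with no filter, 3.3e-05 on log2(nRPKM + 0.1) and 0.0036 in thinned counts. Tcf7 gave -0.0548 with voom+limma and Kremen1 -0.0259 without both mice. With a mouse left out, Fzd4 ran from -0.30 to 0.19, Axin1 from -0.0339 to 0.0288, Tcf7 from -0.0157 to 0.77, Porcn from -0.0679 to 0.17, Kremen1 from -0.0131 to 0.13, Nkd1 from -0.33 to 0.54 and Nkd2 from -0.41 to 0.55. The correlation of Dkk2 with Wif1 ran from -0.0414 to 0.50, of Wif1 with Ptk7 from -0.0514 to 0.41 and of Dkk2 with Fzd9 from 0.78 to 0.92, passing without PS2APP;Trem2wt mouse 5 (adjusted exact permutation p = 0.0333). The causes were not tested. No paired analysis was possible because the labels do not say which mice were processed together, although the methods state that mice of both genotypes usually were. With 2 to 14 reads on Wif1 in PS2APP;Trem2ko mice, depth limits the size of its fold change, and for the 10 components under the filter no difference could be tested.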

Other observations

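No nuclear co-factor of β-catenin and none of the remaining cytoplasmic components was called by edgeR. All 19 co-factors passed the filter, 14 had a negative log2 fold change in edgeR and the median was -0.06, while of 27 cytoplasmic components tested 18 were negative and the median was also -0.06. At an unadjusted p of 0.05 or less, 4 co-factors were lower and 1 higher, and 3 cytoplasmic components were lower and 1 higher, against 7.56% lower and 7.29% higher among all genes tested. DESeq2 called Tle1 (adjusted p = 0.0483), Dact1 (0.0156) and Ldb1 (0.00924) of these 2 lists. The genes picked out here were chosen after their values were seen. Ldb1, an adaptor protein of nuclear complexes, was at 27.4 ± 2.68 (SD, n = 7) nRPKM in PS2APP;Trem2wt and 33.3 ± 2.53 (SD, n = 6) nRPKM in PS2APP;Trem2ko mice, with a log2 difference of 0.28 (SE 0.07, edgeR adjusted p = 0.0739). Tle1, a Groucho co-repressor of TCF/LEF factors, was at 2.57 ± 0.301 and 2.10 ± 0.189 nRPKM (edgeR adjusted p = 0.139). Dact1, a Dishevelled-binding protein, was at 1.2 ± 0.299 and 0.610 ± 0.250 nRPKM, with a log2 difference of -0.98 (SE 0.28, edgeR adjusted p = 0.0966), and its ranges of 0.809 to 1.53 and 0.186 to 0.897 nRPKM overlapped only at their ends.

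Fzd8 and Ryk were low in the same 3 of 7 PS2APP;Trem2wt mice, numbers 1, 2 and 7, and Wif1 was highest in mice 7 and 1 (2.60 and 2.21 nRPKM), with mouse 2 at 1.05 nRPKM. Dkk2 in these 3 mice was 4.54, 3.56 and 4.18 nRPKM, inside the range of the other 4. The 3 mice are a female and both males, so the split did not follow sex alone.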
